A study of Sus scrofa with 36 samples.

Results

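Liver RNA of 6 crossbred pigs (F1) was compared with that of 6 Creole pigs (CR) kept at thermoneutrality (TN, 24 °C), the temperature at which no heat load was imposed. These 12 animals, 1 array each, are part of a series of 36 castrated male pigs. They were chosen by their labels for breed and temperature, so that no measured value entered the choice. Creole is a local breed of the Caribbean, Large White (LW) is the fast-growing lean breed of European origin, and F1 is the cross of both. The remaining pigs of the series were LW at TN, and LW, CR and F1 under heat stress (HS), for which the labels give 30 °C and the growth protocol 32 °C. The contrast asks which liver transcripts differ between the cross and its Creole parental breed before any heat was applied.

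Per the study's methods, the pigs of a breed came from a small number of litters that were split over pens and temperatures, and a pen held pigs of 1 breed. The 6 pigs of a group are therefore partly littermates and not independent draws of the breed, breed cannot be told apart from pen, and the litter, parents, pen and slaughter day of each pig are not in the labels. An F1 animal carries 1 chromosome set of each parental breed, so at each autosomal gene its transcripts come from a Large White and a Creole copy. A 60-base oligonucleotide probe reads the amount of RNA that pairs with it, and both the amount of a transcript and its sequence at the probe set the signal. In a bulk sample, fewer cells of a type and less RNA per cell cannot be told apart.

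All 9 measured hepatocyte markers were well above background in both groups, and their summed level spanned 20.95 to 21.07 log2 units in CR and 20.98 to 21.07 in F1. Between 41045 and 43067 spots per array were well above background. The number of such spots did not separate the groups (two-sided exact permutation test over 924 splits of 6 against 6, p = 0.152, adjusted p = 0.325 over 6 array measures). The first principal component of the 12 arrays held 21.1% of the variance. On it, F1 replicate 3 stood apart at 69.7, with the other 5 F1 arrays between -13.9 and 24.3 and the CR arrays between -30.4 and 1.69 (same exact permutation test, p = 0.039, adjusted p = 0.234). F1 replicate 3 also had the lowest mean correlation with its own group, 0.986, so the main counts are given with and without it.

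Of 44796 probes tested, 34 differed between F1 and CR at an adjusted p under 0.05 in limma (0.0759% of the probes tested). F1 was higher on 13 of them (0.029% of the probes tested) and lower on 21 (0.0469%). The differences on these 34 probes ran from 0.36 to 3.61 log2 units in size, beside a median size of 0.08 over all probes, and 12 of them reached 1 log2 unit. Without F1 replicate 3, 20 probes passed, of which 18 were among the 34. Over all probes, 3796 had an unadjusted p under 0.05 (8.47%), 1827 higher and 1969 lower in F1. The 6 F1 values lay wholly outside the 6 CR values on 20 of the 34 probes, 12 with F1 below and 8 with F1 above, whereas this held for 223 of all 44796 probes (0.498%). A symbol of 1 of 15 genes was carried by 16 of the 34 probes, and 18 had none.

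Sets of 6 CR and 6 F1 pigs that stayed in the same study through the heat exposure gave the same contrast in other animals, though in littermates of the first. F1 lay on the same side of CR under HS on 34 of the 34 probes, and this held for 57.6% of all probes. On 27 of the 34 the HS difference also had an unadjusted p under 0.05 in the same direction, against 6.84% of all probes, and 7 of the 34 passed the adjusted threshold under HS (0.0871% of all probes). Both contrasts use 1 shared estimate of the spread. A small spread helped a probe into the 34 and also lowers its HS p, so these counts are no independent check. Nor are the 34 all separate observations, since KYAT3 probes among them overlap. The test of the difference between the HS and TN contrasts passed on no probe of 44796 (limma, smallest adjusted p = 0.999, 1580 probes or 3.53% at an unadjusted p under 0.05). Of the 34, 9 had an unadjusted p under 0.05 in this test (26.5%). The difference was smaller under HS on 32 of the 34, and on 22392 of all 44796 probes. The 34 were chosen on the TN values, so the counts of 9 and 32 are given as a description only. The same holds for the smaller median size under HS, 0.50 against 0.73 log2 units.

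**Figure D1:**
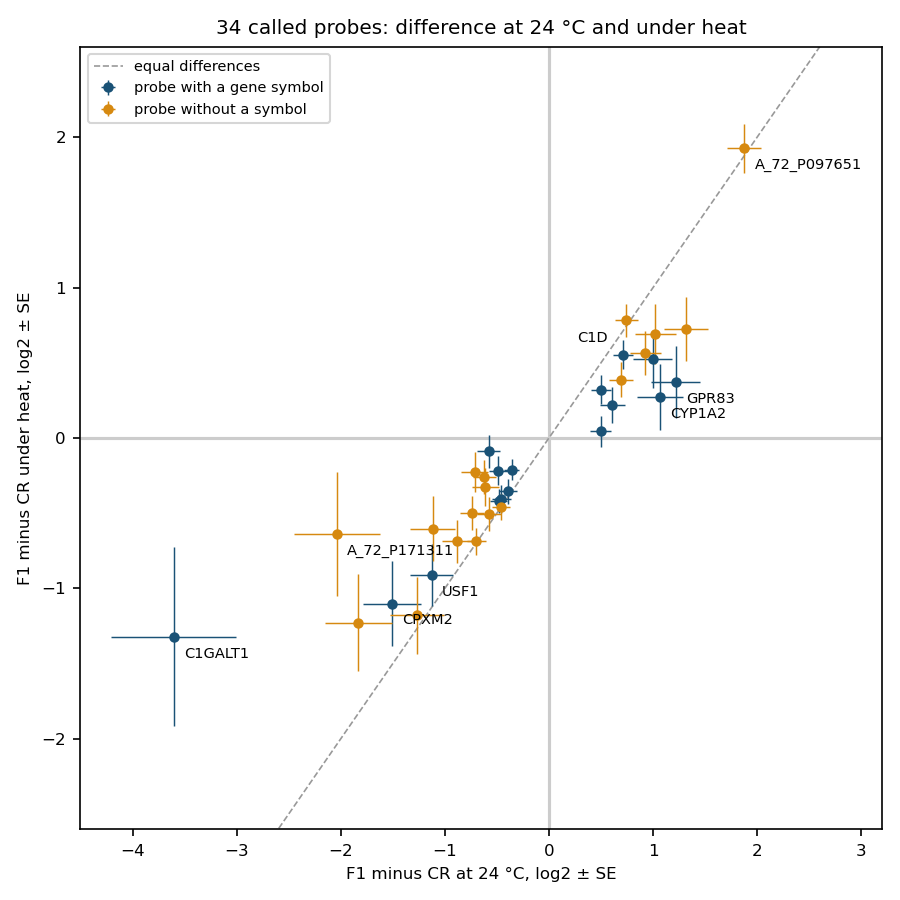
F1 minus CR in log2 units with its standard error, at 24 °C on the horizontal axis and under heat on the vertical axis, for the 34 probes that passed at 24 °C. All 34 points lie in the lower left or the upper right of the plot. A_72_P097651 and C1GALT1 have the largest positive and negative differences at 24 °C.

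C1GALT1 had the largest difference of all named genes. It encodes the galactosyltransferase that makes the core 1 structure of O-linked glycans on secreted and membrane proteins. In RefSeq assembly Sscrofa11.1 the gene lies on chromosome 9, from 77509342 to 77549545. Its 1 measured probe read 8.07, 8.55 and 9.10 (lowest, median and highest normalized log2 signal) in CR and 4.74, 4.93 and 5.18 in F1. The 6 CR pigs were well above background and the 6 F1 pigs were not, so that the F1 level is only bounded. CR was at least 10.8-fold higher than F1 (limma adjusted p = 0.00383), and the difference passed without each array in turn. Without all arrays of slide 3 or of slide 4 it missed the threshold (limma adjusted p = 0.128 and 0.057). LW pigs at TN read 4.89 to 5.00 and were likewise not above background.

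The C1GALT1 signal took either a high or a low value in single pigs, with nothing between 5.69 and 7.79 in any pig of the series. Under HS, 5 CR pigs read 7.79 to 9.45 and 1 read 4.80, while 4 F1 pigs read 4.88 to 5.40 and 2 read 8.95 and 9.44. The complete separation at TN was thus not present in the littermates, where F1 minus CR was -1.32 ± 0.60 (SE, unadjusted p = 0.0337, adjusted p = 0.53). The first 30 bases of the probe, shown because the largest difference rests on this single oligonucleotide, were as follows.
C1GALT1 (O9745): ggcagatctatttagcattgtgtgtggatt

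CPXM2, a member of the metallocarboxypeptidase family related to carboxypeptidase X, was lower in F1 on both of its probes. The gene lies on chromosome 14, from 133246521 to 133376378. The probe that passed read 9.58, 9.94 and 10.16 in CR and 7.66, 8.11 and 9.73 in F1. Below all CR pigs lay 5 of the F1 pigs, while F1 replicate 1, at 9.73, lay among the CR pigs. F1 minus CR was -1.51 ± 0.28 (SE, n = 6 in each group, limma adjusted p = 0.0153), or 2.84-fold lower. The brighter probe of the gene gave -1.14 and missed the threshold (adjusted p = 0.0817).

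F1 replicate 1 was also the highest F1 pig on 3 of the called probes without a symbol. On A_72_P086706, where F1 was the higher group, it read 6.58, close to the next F1 pig at 6.54. F1 was the lower group on the other two. On a probe to the expressed sequence tag BP158076, CR read 9.14, 9.87 and 10.08 and F1 read 7.32, 7.58 and 9.45, with F1 replicate 1 again the single F1 value inside the CR range. The difference was -1.83 ± 0.32 (limma adjusted p = 0.00813). A_72_P162711, named here because its values follow the same animals, read 6.39 to 7.06 in CR and 6.55 in F1 replicate 1, and 4.96 to 5.63 in the other 5 F1 pigs (-1.27 ± 0.26, adjusted p = 0.0314). The call on A_72_P162711 was lost with the processed signal of the scanner software, which gave -2.50, and with a normexp background correction, which gave -0.84. Under HS, F1 replicate 3 was the highest F1 pig on all 3 probes, at 9.59 for CPXM2, 9.16 for BP158076 and 6.65 for A_72_P162711, and CR replicates 1 and 6 were the lowest CR pigs on all 3. Replicates are numbered within each group, so these HS pigs are other animals than the TN pigs of the same number. Whether the 3 probes read 1 transcript is not given by the files. The CPXM2 and BP158076 probes are shown in full for comparison.
CPXM2 (A_72_P490644): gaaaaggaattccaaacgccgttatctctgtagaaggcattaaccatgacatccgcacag
BP158076: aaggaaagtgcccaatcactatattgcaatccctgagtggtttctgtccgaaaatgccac

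**Figure D2:**
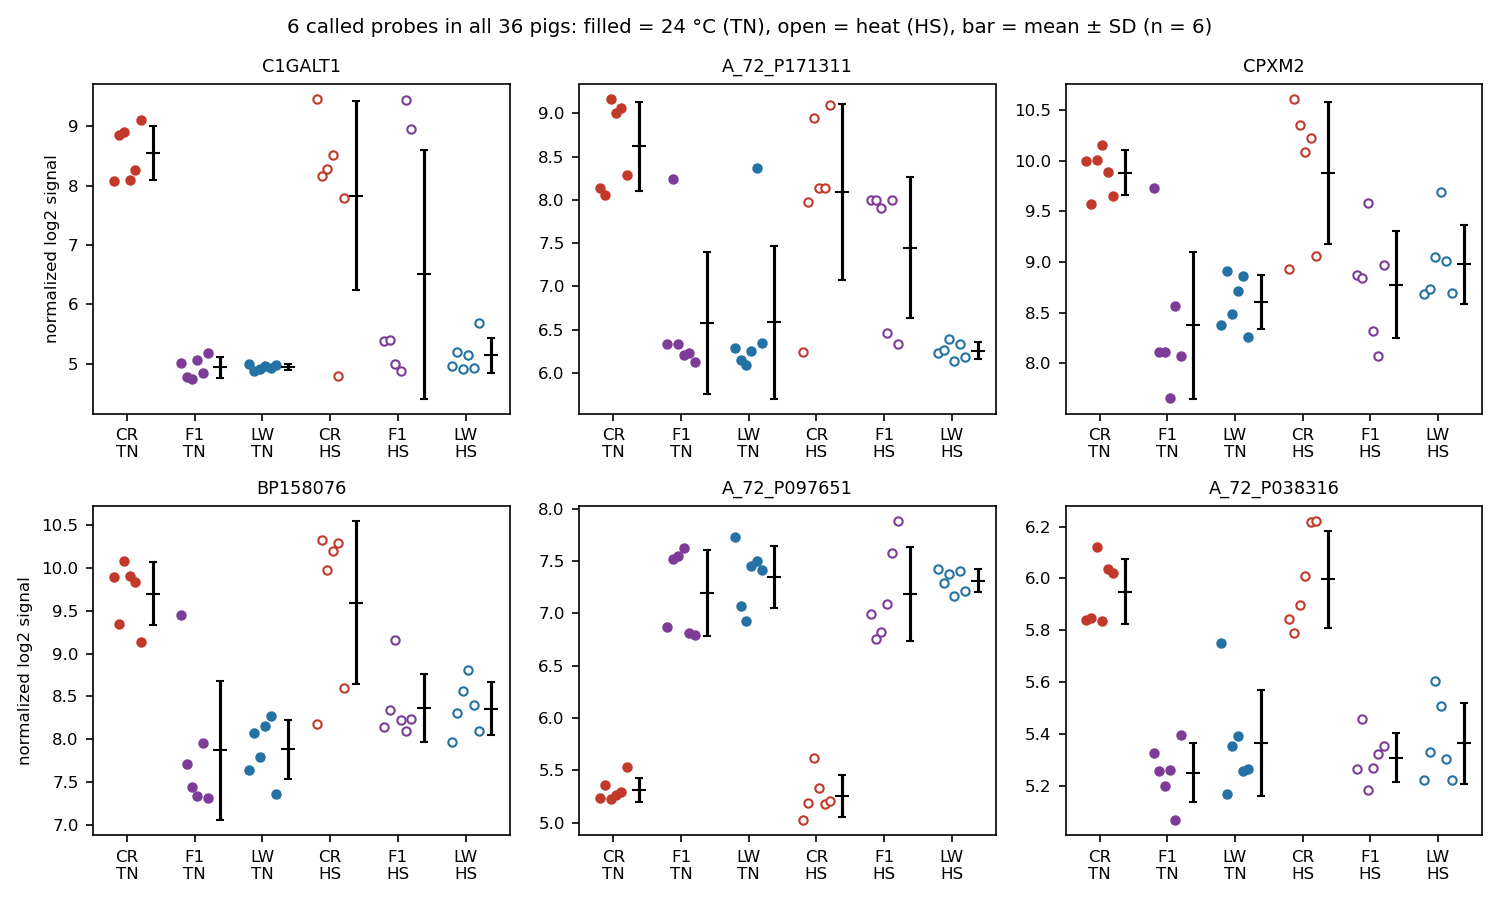
Normalized log2 signal of 6 called probes in all 36 pigs, 1 point per pig, filled at 24 °C and open under heat, with mean and SD (n = 6) beside each group. C1GALT1, A_72_P171311, CPXM2 and BP158076 show some pigs at the level of the other breed, on A_72_P171311 most of the F1 pigs under heat. Of the 6 probes shown, A_72_P097651 and A_72_P038316 separate all 12 F1 pigs from all 12 CR pigs.

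USF1, a basic helix-loop-helix factor that binds E-boxes in genes of glucose and lipid metabolism, was lower in F1. Its called probe read 7.23, 8.09 and 8.60 in CR and 6.52, 6.74 and 7.64 in F1. The ranges overlapped through CR replicate 6, at 7.23, and F1 replicate 5, at 7.64. At TN F1 minus CR was -1.13 ± 0.21 (SE, limma adjusted p = 0.0152), a level 2.18-fold lower, and under HS it was -0.91 ± 0.21 (unadjusted p = 0.000113, adjusted p = 0.0706).

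All 5 measured USF1 probes were lower in F1, from -1.13 to -0.19, although 1 passed. One of them is an exact copy of the called probe and gave -0.99 (adjusted p = 0.0576), so these 2 read the same target and count as a repeat measurement. LW pigs at TN read 6.69 to 6.93, inside the F1 range (F1 minus LW 0.01, limma adjusted p = 0.993). USF1 lies on chromosome 4, from 89395133 to 89401048.

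C1D, a cofactor of the nuclear exosome that takes part in RNA processing, was higher in F1. It read 7.49, 7.65 and 7.74 in CR and 7.96, 8.39 and 8.69 in F1, so that no F1 pig overlapped with a CR pig. The contrast stood at 0.71 ± 0.10 (SE, limma adjusted p = 0.000356), or 1.64-fold, and under HS it was 0.56 ± 0.10 (adjusted p = 0.0103). The 6 LW pigs at TN read 8.59 to 8.87, at the upper end of the F1 range (F1 minus LW -0.29, adjusted p = 0.124). A second, dimmer probe of C1D gave 0.14 (adjusted p = 0.691). The gene lies on chromosome 3, from 74133665 to 74153756.

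LSM7, a component of the Lsm ring that binds U6 small nuclear RNA and decaying mRNA, was lower in F1. It read 12.75, 12.90 and 13.01 in CR and 12.29, 12.54 and 12.75 in F1, where 3 F1 pigs stayed near the lower CR values and 3 lay well below them. F1 minus CR was -0.36 ± 0.07 (SE, limma adjusted p = 0.0317), the smallest difference that passed. LW read 12.73 to 12.95, and F1 was lower than LW as well (-0.35, adjusted p = 0.0211). The F1 samples serve in both of these contrasts.

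CINP, which interacts with cyclin-dependent kinase 2 and acts in genome maintenance, was higher in F1. It read 8.44, 8.67 and 8.98 in CR and 8.96, 9.22 and 9.41 in F1, with 1 CR pig inside the lower end of the F1 range. F1 lay at a difference of 0.50 ± 0.10 (SE, limma adjusted p = 0.0198), or 1.42-fold, beside 0.32 under HS (unadjusted p = 0.00201, adjusted p = 0.232). QSER1, a protein described as protecting DNA methylation valleys from methylation, read 9.13, 9.43 and 9.99 in CR and 9.83, 9.97 and 10.13 in F1. The groups differed by 0.50 ± 0.10 (limma adjusted p = 0.0373). The F1 values of QSER1 lay close together (SD 0.10), whereas those of CR spread over most of a log2 unit (SD 0.36). Its other 2 probes gave 0.22 and -0.05, neither of which passed, and under HS the called probe gave 0.05 (unadjusted p = 0.66).

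KYAT3, kynurenine aminotransferase 3 (also listed on the array under its older name CCBL2), transfers the amino group of kynurenine and cleaves cysteine conjugates. It was lower in F1, with 12.23, 12.48 and 12.57 in CR and 11.80, 11.92 and 12.19 in F1, without overlap. F1 minus CR was -0.48 ± 0.08 (SE, limma adjusted p = 0.00399), or 1.40-fold lower, and -0.42 ± 0.08 under HS (adjusted p = 0.0266). LW at TN read 11.84 to 12.06, with F1 minus LW at 0.00 (adjusted p = 0.99).

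A second KYAT3 probe passed as well, with 12.83, 13.18 and 13.28 in CR and 12.51, 12.59 and 12.83 in F1 (-0.46 ± 0.09, adjusted p = 0.0318). It overlaps the first over 54 of 60 bases and is not a separate observation. The first 30 bases of both are printed to show the overlap, with the shared bases in capitals.
KYAT3 (A_72_P708935): TGCTTAACCTCTCTGGTTTCAGTTTACTCA
KYAT3 (A_72_P048401): gtgagaTGCTTAACCTCTCTGGTTTCAGTT
All 7 measured KYAT3 probes were lower in F1, but the other 5 ranged from -0.23 to -0.06 and did not pass. The gene lies on chromosome 4, from 127451475 to 127507766.

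MDH2, the malate dehydrogenase of the mitochondrial matrix and the citric acid cycle, read 13.01, 13.19 and 13.43 in CR and 12.66, 12.80 and 12.94 in F1, without overlap. At TN F1 minus CR was -0.39 ± 0.08 (SE, limma adjusted p = 0.0494), or 1.31-fold lower, the closest of the 34 to the threshold. All 4 of its probes were lower in F1, from -0.41 to -0.27, and 1 passed. Under HS the called probe gave -0.35 ± 0.08 (unadjusted p = 0.000141, adjusted p = 0.0769). LW read 12.93 to 13.18, and F1 minus LW was -0.29 (adjusted p = 0.0787). MDH2 lies on chromosome 3, from 10120121 to 10132705.

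**Figure D3:**
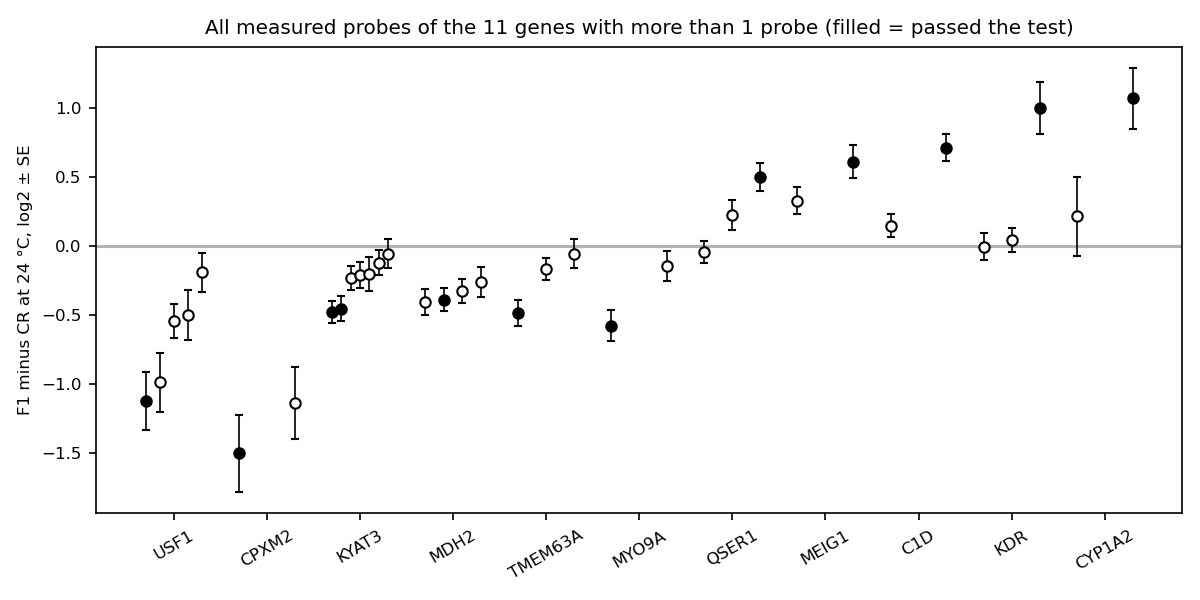
F1 minus CR at 24 °C in log2 units with its standard error, for every measured probe of the 11 genes that had more than 1 probe. Filled points passed the test. The probes of USF1, KYAT3 and MDH2 all lie below 0, whereas 2 of 3 KDR probes lie at 0.

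CYP1A2, the hepatic cytochrome P450 that oxidizes caffeine, aromatic amines and skatole, was higher in F1 on 1 of its probes. That probe read 6.96, 7.14 and 7.88 in CR and 7.88, 8.40 and 8.56 in F1. CR replicate 5, at 7.88, reached the lowest F1 pig and the other 5 CR pigs lay at 7.20 or below. The contrast stood at 1.07 ± 0.22 (SE, limma adjusted p = 0.0373), or 2.09-fold. The brighter CYP1A2 probe, which represents the gene, gave 0.21 (adjusted p = 0.927), and under HS the called probe gave 0.27 ± 0.22 (unadjusted p = 0.224). CYP1A2 lies on chromosome 7, from 58779529 to 58786155.

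KDR, the VEGF receptor 2 of endothelial cells, was higher in F1 on 1 of its 3 probes. That probe read 8.25, 9.33 and 9.62 in CR and 9.53, 10.17 and 10.70 in F1. One F1 pig, replicate 5, lay inside the CR range. F1 minus CR was 1.00 ± 0.19 (SE, limma adjusted p = 0.0178), or 1.99-fold, beside 0.52 ± 0.19 under HS (unadjusted p = 0.00871, adjusted p = 0.371). The other 2 KDR probes gave -0.01 and 0.04 at TN. Under HS they gave -0.38 (limma unadjusted p = 0.000411), opposite in sign to the called probe, and 0.07. The gene lies on chromosome 8, from 41809116 to 41856379.

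KDR was 1 of 7 measured markers of sinusoidal endothelium. Of these 7 markers, 1 passed, and their summed log2 level was 14.41 to 14.80 in CR and 14.26 to 14.80 in F1. With KDR counted, 6 of the 7 were higher in F1 at TN (median 0.12) and 7 under HS (median 0.25). Over all symbols 47.9% were higher in F1 at TN. None of the 7 was below background in a whole group. The part of endothelial cell number in the KDR difference was not tested.

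GPR83, a G protein-coupled receptor first described as glucocorticoid-induced, read 5.64, 7.01 and 7.58 in CR and 7.72, 7.82 and 8.18 in F1. No F1 pig overlapped with CR. CR replicates 2 and 5 lay at 5.77 and 5.64, far below the other CR pigs. The groups differed by 1.22 ± 0.24 (SE, limma adjusted p = 0.0246), or 2.32-fold, and 0.37 ± 0.24 under HS (unadjusted p = 0.13). The gene lies on chromosome 9, from 26549230 to 26560473.

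The remaining named genes that passed were MYO9A, TMEM63A and MEIG1. MYO9A, an unconventional myosin, read 8.11, 8.18 and 8.63 in CR and 7.40, 7.63 and 7.99 in F1, without overlap (-0.58 ± 0.11, limma adjusted p = 0.0207). Under HS its difference was -0.09 ± 0.11 (unadjusted p = 0.435), and its other probe gave -0.15 at TN. TMEM63A, a mechanosensitive ion channel, read 7.23, 7.45 and 7.58 in CR and 6.61, 6.99 and 7.20 in F1, also without overlap (-0.49 ± 0.09, adjusted p = 0.023). The other TMEM63A probes gave -0.17 and -0.06.

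MEIG1, a protein needed for the shaping of sperm heads, read 5.18, 5.50 and 5.83 in CR and 5.94, 6.06 and 6.37 in F1 (0.61 ± 0.12, limma adjusted p = 0.0269). The groups did not overlap, but the level was near background, with 4 of 6 CR pigs and 6 of 6 F1 pigs well above it. Its other probe gave 0.32 (adjusted p = 0.226).

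The calls differed in how far they rested on single arrays. Each of the 12 arrays was left out in turn. KYAT3 on its first probe, C1D and C1GALT1 passed in each of the 12 fits. The call was lost in 2 of the 12 for USF1, CPXM2 and KDR, in 3 for MYO9A and CINP, and in 4 for TMEM63A and GPR83. It was lost in 7 for LSM7 and MEIG1, in 8 for QSER1, in 9 for CYP1A2 and in 10 for MDH2. Each of the 5 slides was also left out in turn, which removes several pigs at once. The call was then lost in 1 of 5 fits for C1D and in 2 for C1GALT1 and the first KYAT3 probe. It was lost in 3 for CPXM2, USF1, CINP, MEIG1, KDR, CYP1A2 and GPR83. For MYO9A, MDH2, LSM7 and QSER1 it was lost in 4, and for TMEM63A in 5.

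**Figure D4:**
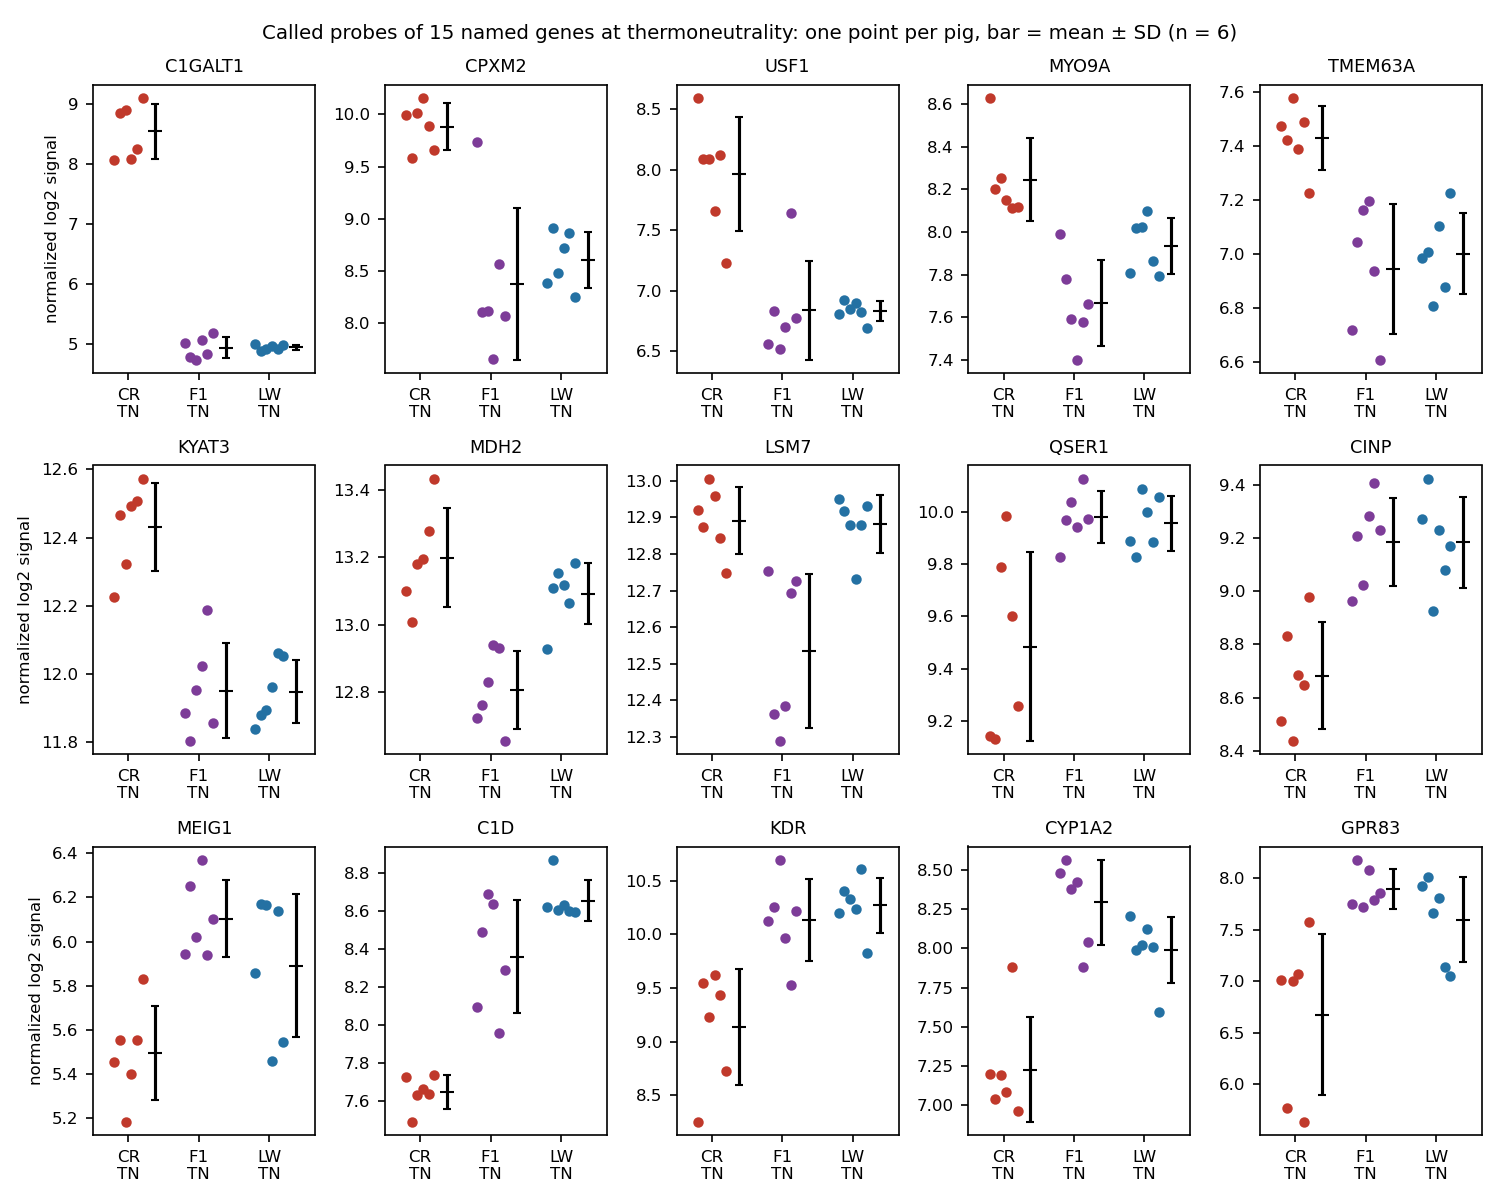
Normalized log2 signal of 1 called probe for each of the 15 named genes at 24 °C in CR, F1 and, for reference, LW, 1 point per pig, with mean and SD (n = 6) beside each group. The vertical scales differ between panels. F1 lies below CR for C1GALT1, CPXM2, USF1, MYO9A, TMEM63A, KYAT3, MDH2 and LSM7 and above it for the other 7 genes.

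Among the 18 called probes without a symbol, 6 were higher and 12 lower in F1. The largest positive difference among the 34 was on A_72_P097651, which the file describes by a partial match to canine coiled-coil domain containing 17. It read 5.22, 5.28 and 5.53 in CR and 6.79, 7.20 and 7.62 in F1. The signal was well above background in 2 of 6 CR pigs and in 6 of 6 F1 pigs. At TN F1 minus CR was 1.88 ± 0.16 (SE, limma adjusted p = 1.43e-08) and 1.93 ± 0.16 under HS (adjusted p = 7.12e-09). Over both temperatures the CR pigs read 5.03 to 5.62 and the F1 pigs 6.75 to 7.88, so that all 12 F1 pigs lay above all 12 CR pigs. LW pigs at TN read 6.93 to 7.73, in the F1 range.

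A_72_P038316, singled out here because it passed without each array and each slide in turn, was the reverse of this. It read 5.84, 5.93 and 6.12 in CR and 5.07, 5.26 and 5.40 in F1 (-0.70 ± 0.09, limma adjusted p = 0.000106), and -0.69 ± 0.09 under HS (adjusted p = 0.000146). Of the 6 F1 pigs, 2 were well above background, and the size of the difference depended on the signal used, at -1.79 with the processed signal and -0.40 with normexp. All 12 F1 pigs lay below all 12 CR pigs over both temperatures, since CR read at least 5.79 under HS and F1 at most 5.46. The called C1D probe and A_72_P352383 (F1 higher) and A_72_P015431 (F1 lower) also separated all 12 F1 pigs from all 12 CR pigs. The difference on A_72_P097651 likewise became 3.64 with the processed signal. The first 30 bases of A_72_P097651 and A_72_P038316 are shown because their calls were kept without each array and each slide.
A_72_P097651: gaccttcgttacctactttccctttgtaag
A_72_P038316: atggcaaaatgattaccacaatacggttag

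A_72_P171311, which the file describes by a match to the bovine liver form of cytochrome c oxidase polypeptide VIII, had the largest negative difference among probes without a symbol. It read 8.05, 8.65 and 9.16 in CR and 6.12, 6.29 and 8.24 in F1. The values of 5 F1 pigs lay between 6.12 and 6.34, and F1 replicate 2, at 8.24, lay with the CR pigs. The difference was -2.04 ± 0.41 (SE, limma adjusted p = 0.0314). Under HS, 4 F1 pigs read 7.90 or higher and 2 read 6.33 and 6.46, and 1 of 6 CR pigs read 6.24, which left -0.64 ± 0.41 (unadjusted p = 0.13). A_72_P241267 read 5.23, 5.62 and 6.57 in CR and 6.78, 6.98 and 7.34 in F1, without overlap (1.32 ± 0.21, adjusted p = 0.00276, and 2.45 with the processed signal). The other 12 probes without a symbol, leaving out those with a difference given above and with A_72_P086706 among them, lay between -1.12 and 1.02.

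The called probes were not drawn from one part of the signal range. Their mean level over the 12 pigs ran from 5.60 to 16.27 log2 units with a median of 7.45, against 7.43 over all probes. Of the called probes 52.9% had no symbol, against 48.2% of all probes tested, and their median GC content was 38.3% against 41.7%. The 14 called genes placed on a chromosome lay on 9 different chromosomes. USF1 and KYAT3 shared chromosome 4, C1GALT1 and GPR83 chromosome 9, C1D and MDH2 chromosome 3, LSM7 and QSER1 chromosome 2, and MEIG1 and TMEM63A chromosome 10, with no pair close to each other.

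Gene groups of liver metabolism were described with 1 probe per gene, the brightest. Of 11256 symbols, 12 passed (0.107%), 6 in each direction and KYAT3 under both of its names, and 1026 had an unadjusted p under 0.05 (9.12%), 448 higher (3.98%) and 578 lower (5.14%). Outside KDR, no gene of the 33 lists passed on this probe, so the values below are differences that missed the threshold. The medians of the lists lay between -0.23 and 0.21, beside -0.01 over all symbols. The share of a list with an unadjusted p under 0.05 ran from 0% to 50%, the highest in the 6 bile duct cell markers.

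In lipid metabolism, none of 29 genes of fatty acid and triglyceride synthesis had an unadjusted p under 0.05 (median difference 0.02). Of 43 genes of fatty acid oxidation, 7 did (16.3%, against 9.12% of all symbols), 4 higher and 3 lower in F1 (median -0.06). Among these, ECI2, an isomerase for unsaturated fatty acids, gave -0.91 (limma adjusted p = 0.125), and PDK4, which restrains pyruvate dehydrogenase, gave 0.48 (adjusted p = 0.437) with the same sign on all 11 of its probes. ACSL4, an acyl-CoA synthetase that prefers arachidonate, gave -0.99 (adjusted p = 0.379), also with 1 sign on all 8 of its probes. Among 20 apolipoprotein genes, APOA2, a major protein of high-density lipoprotein, gave -0.37 at TN (adjusted p = 0.186) and -0.30 under HS (unadjusted p = 0.00673). Of 32 cholesterol genes 3 (9.4%) and of 19 bile acid genes 2 (10.5%) had an unadjusted p under 0.05. The largest of these was SLC51B, a subunit of the bile acid exporter of the basolateral membrane, at -1.82 (adjusted p = 0.3).

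In detoxification and redox defence, 7 of 33 antioxidant genes had an unadjusted p under 0.05 (21.2% against 9.12% of all symbols), 1 higher and 6 lower in F1. GSR, glutathione reductase, gave -0.55 (limma adjusted p = 0.288), GCLC, the catalytic subunit that starts glutathione synthesis, gave -0.40 (adjusted p = 0.487), and PRDX6, a peroxiredoxin, gave 0.48 (adjusted p = 0.345). SELENOP, the selenium carrier of plasma, gave -0.27 with the same sign on all 13 probes (adjusted p = 0.479). The median of the antioxidant list was -0.05. Of 24 conjugating enzymes 5 (20.8%) and of 27 cytochrome P450 genes with their regulators 4 (14.8%) had an unadjusted p under 0.05. NNMT, a nicotinamide methyltransferase, gave 1.66 with a CR spread of 1.49 (SD, limma adjusted p = 0.464).

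Of 41 genes of the urea cycle and amino acid catabolism, 6 had an unadjusted p under 0.05 (14.6%, against 9.12% of all symbols), 1 higher and 5 lower. BHMT, which remethylates homocysteine with betaine, gave -0.42 at TN and -0.34 under HS (limma adjusted p = 0.223 at TN), and its TN groups did not overlap. KMO, kynurenine monooxygenase, which acts on the same substrate as KYAT3, gave 0.70 at TN (adjusted p = 0.315) and 0.01 under HS. Of 41 genes of glucose and glycerol metabolism 3 had an unadjusted p under 0.05 (7.3%). None of 28 genes of the growth hormone and IGF axis did (median 0.01), nor did any of 26 acute phase genes (median 0.06) or of 11 MHC class II genes (median -0.04). Of 35 heat shock genes 2 (5.7%) and of 23 genes of endoplasmic reticulum stress 1 (4.3%) had an unadjusted p under 0.05, with medians of 0.01.

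A pair of lists, cell cycle and matrix, had most of their genes lower in F1 at TN and most of them higher in F1 under HS. Of 32 cell cycle genes 24 were lower in F1 at TN (median -0.19) and 11 were lower under HS (median 0.07). MCM2, a subunit of the replicative helicase, gave -0.52 (limma adjusted p = 0.278), the lowest of the list. Of 33 matrix genes 25 were lower at TN (median -0.14) and 6 under HS (median 0.13), and SPARC, a matrix glycoprotein of stellate cells, gave -0.42 at TN (adjusted p = 0.529) with the same sign on all 8 probes. Without F1 replicate 3, a setting chosen after seeing the data, the TN medians were -0.19 and -0.12. Over all symbols 47.9% were higher in F1 at TN.

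Of 13 mitochondrially encoded transcripts 11 were higher in F1 at TN (84.6%, against 47.9% of all symbols, median 0.11) and 11 under HS (median 0.13). At TN 5 had an unadjusted p under 0.05 (38.5%, against 9.12% of all symbols), 4 of them higher. COX3 gave 0.20 (limma adjusted p = 0.325), CYTB 0.22 (adjusted p = 0.464) and ND6 0.51 (adjusted p = 0.325), although the second ND6 probe had the other sign. ND4L, also encoded in mitochondria, gave -0.23. These transcripts are cut from shared precursors and are not independent of each other. Of 38 interferon-stimulated genes 6 had an unadjusted p under 0.05 (15.8%), 4 higher and 2 lower, with a median of 0.00. The highest of them was the gene listed as ISG12(A), at 1.20 in TN (adjusted p = 0.298) and 1.34 under HS (unadjusted p = 0.00216), and its CR values were spread widely (SD 1.09).

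Markers of cells other than hepatocytes were compared for their summed level. For 7 erythroid markers it was 14.04 to 14.48 in CR and 13.43 to 14.11 in F1, and 0 of the 7 was higher in F1 (median -0.23, and -0.17 without F1 replicate 3). For 11 T and NK cell markers it was 11.18 to 11.53 in CR and 11.29 to 11.63 in F1, with 9 higher in F1 (median 0.21), among them NKG7, a granule protein of cytotoxic cells, at 0.43 (limma adjusted p = 0.339). For 10 resident macrophage markers it was 16.60 to 17.10 in CR and 16.72 to 17.06 in F1, with 8 higher in F1 at TN (median 0.17, and 0.10 without F1 replicate 3) and 10 under HS (median 0.27). The ranges of the stellate, bile duct, B cell, neutrophil and adipocyte lists overlapped between the groups as well. Beside these counts, 47.9% of all symbols were higher in F1 at TN. The part of cell composition in the called probes was not tested.

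**Figure D5:**
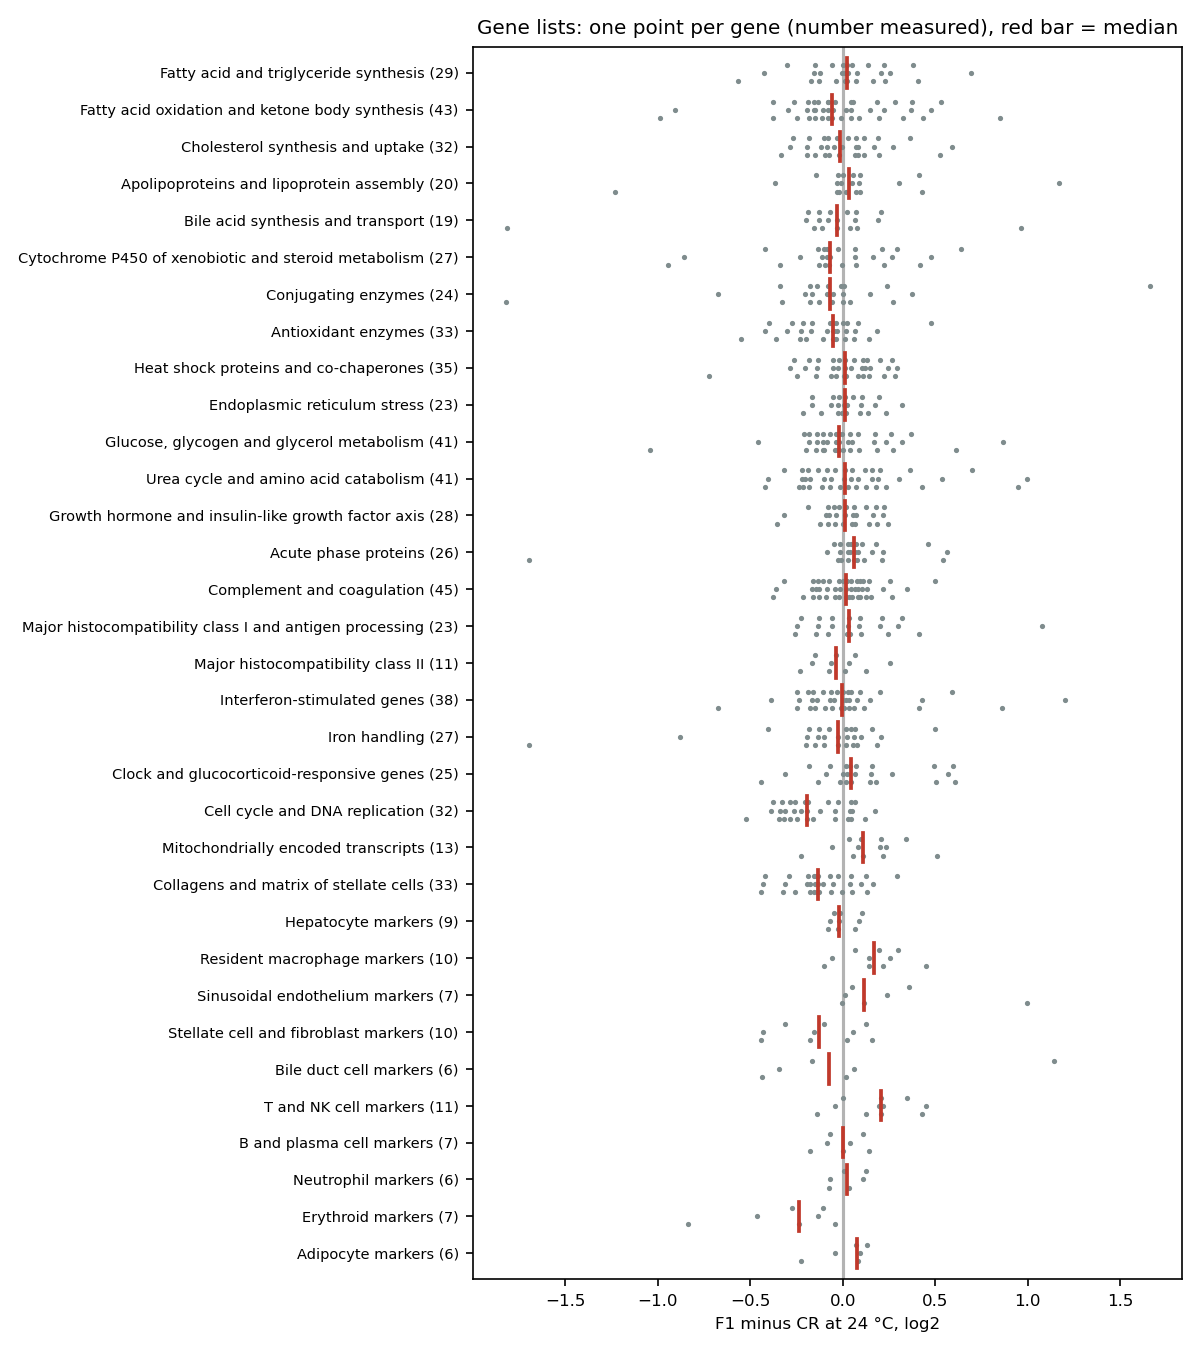
F1 minus CR at 24 °C in log2 units for each gene of 33 lists, 1 point per gene, with the number of genes measured in parentheses and the median as a red bar. Most medians lie within 0.10 of 0, with the cell cycle, matrix and erythroid lists to the left and the macrophage and T and NK cell lists to the right.

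The 5 uncalled genes with a difference of at least 2 log2 units on their brightest probe had a wide spread within groups. They are named after their values were seen. THEM5, a mitochondrial acyl-CoA thioesterase, read 6.52 to 11.11 in CR and 11.09 to 12.19 in F1 (2.93 ± 1.15, limma adjusted p = 0.435). KIF1A, a kinesin motor, read 5.68 to 10.36 in CR and 6.15 to 10.67 in F1 (2.80 ± 1.01, adjusted p = 0.356).

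TOR3A, a torsin ATPase, had a median of 4.98 and a highest value of 9.37 in CR, against 8.02 to 9.14 in F1 (2.25 ± 0.91, limma adjusted p = 0.458). TMEM52B read 8.93 to 12.57 in CR and 5.27 to 9.88 in F1 (-2.52 ± 0.92, adjusted p = 0.372). ABCC8, the sulfonylurea receptor, read 5.26 to 10.62 in CR and 4.97 to 9.16 in F1 (-2.02 ± 0.90, adjusted p = 0.522). In each of these the SD of at least 1 group was several times the usual one, as the median SD over all probes was 0.17 in CR and 0.18 in F1.

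No gene passed the test of a TN contrast that differed from the HS contrast. The 3 symbols with the smallest p were NOL11, TRIP6 and IGFBP2. NOL11, a nucleolar factor of ribosomal RNA synthesis, gave -0.04 at TN and -0.43 under HS. TRIP6, an adaptor protein of focal adhesions, gave -0.44 and 0.75. IGFBP2, a binding protein of insulin-like growth factors, gave 0.16 and -0.73. All 3 had an adjusted p of 0.999.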

How the data were processed

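Liver RNA was hybridized in 1 colour (Cy3), 1 array per pig. The authors deposited scanner tables from Agilent Feature Extraction 10.10.1.1, with spot intensity values on a linear scale, and a table of log2 values that their methods describe as quantile normalized. In the deposited log2 table the levels do not follow those of the scanner and its centring is unknown (column medians 7.656 to 7.659), so only its differences were used.

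From the scanner tables, the median signal was log2 transformed, quantile normalized over the non-control probes of all 36 arrays, with 107 flagged spots set as missing and none in the called probes at TN. The filter kept 44796 of 60305 probes (74.3%), those well above background on 6 or more of the 36 arrays, and 23183 of them carried 1 of 11256 symbols from the files and RefSeq tables. LOC numbers were counted as no symbol. No spot was saturated. The contrasts came from limma 3.58.1 under R 4.3.3, from a means model of 6 groups of 6 pigs, with two-sided moderated tests and Benjamini-Hochberg adjustment over the kept probes. The study's random effects of pen, day and parents are not in the labels. P-values therefore measure the spread between partly related pigs. The number of arrays limits the precision. A bound on a fold used, on each array, the higher of the signal and the lowest signal well above background.

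A gene is represented by its brightest probe. Among genes with a symbol, the 12 largest called differences each way were to be named and fewer passed, so all are named. At most 2 called probes without a symbol were to be named each way, and further ones are named after their values were seen. CPXM2, MDH2, TMEM63A and CYP1A2 are named through other probes, after their values were seen. The groups, lists and naming rule were chosen with earlier results of these data known. The scripts were tested on simulated data. Alternatives were other signals, background correction, filters, models, blocks for slide, array weights, gene means over probes, and omission of single arrays or slides.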

Additional observations from a re-analysis of the deposited data

Results flagged for a closer look

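Among 78 sets of 6 pigs (the called probes and 5 array measures, in each group), 8 had 1 pig whose gap to its nearest neighbour, as a share of the whole range of the group, exceeded Dixon's critical value for 6 samples. In sets not chosen by their values, chance gives about 3.9. The called probes were chosen by the TN test, so that number is a rough guide and no excess is read from the 8. F1 replicate 2 stood above the other F1 pigs on A_72_P171311, at 8.24 against 6.12 to 6.34 (share 0.899). F1 replicate 1 stood above the others on the BP158076 probe, at 9.45 against 7.32 to 7.96 (share 0.699). F1 replicate 5 was highest for USF1, at 7.64 against 6.52 to 6.84 (share 0.719). Among CR pigs, replicate 1 was highest for MYO9A, at 8.63 against 8.11 to 8.26 (share 0.728), and replicate 5 was highest on the called CYP1A2 probe, at 7.88 against 6.96 to 7.20 (share 0.747). CR replicate 4 was highest on A_72_P081416, at 6.91 against 6.24 to 6.38 (share 0.794), and on A_72_P241267, at 6.57 against 5.23 to 5.69 (share 0.661). The mean correlation of F1 replicate 3 with its group was 0.986 against 0.989 to 0.991 (share 0.627).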

How the results depend on the processing

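All 34 differences kept their direction in each alternative tried, and within each of the 4 slides that held both groups. The alternatives largely reuse the same arrays, and a slide held few pigs of each group. Some within-slide differences were near 0, such as -0.05 for CPXM2 on slide 2 (-1.51 in the main fit) and -0.02 for USF1 on slide 5 (-1.13 in the main fit). The count of 34 became 23 with the processed signal at the 75th percentile (11 higher, 12 lower), 35 with normexp, 36 in the authors' table, 33 with no filter, 24 with probes above background on all arrays, 25 in the 12 arrays alone (10 of them among the 34), 38 with slide as a fixed or as a random block and 42 with array weights. A model of breed plus temperature, which pools F1 and CR pigs of both temperatures, gave 674. With 1 value per gene, 8 of 11256 symbols passed, which were KYAT3, C1GALT1, C1D, CINP, GPR83, LSM7, CPXM2 and SELENOF. For SELENOF, 1 probe of 6 lay at -2.37 and the others between -0.31 and -0.17. USF1, at -0.67 (limma adjusted p = 0.0714), and MYO9A, at -0.36 (adjusted p = 0.183), missed the threshold in this setting. So did KDR, QSER1, MEIG1, MDH2, TMEM63A and CYP1A2. Leaving out 1 array gave 20 to 73 probes: 20 without F1 replicate 3 or F1 replicate 4, 61 without CR replicate 6 and 73 without F1 replicate 5. Without slide 3 the count was 12, without slide 4 it was 4 and without slide 5 it was 71, and the cause was not tested. Of the 34, 14 passed without each array in turn, and 2 of these, A_72_P097651 and A_72_P038316, also passed without each slide and under the other settings that kept these probes. The count of 0 for the difference between the HS and TN contrasts was the same in the alternatives run on it. No paired analysis was made, because litters lay within a breed and the labels give no litter.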
